A study of Mus musculus with 5 samples.

Results

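The enzymes that break down amino acids in the liver, and those of the urea cycle that dispose of the released nitrogen, were followed in mice given an antibody against CSF1R. A list of 44 genes was used, chosen by name from textbook pathways, with earlier results of these data known. Of these, 39 had a probe set that the platform annotation assigns to a single gene, out of 18809 genes so measured, and where a gene had several the probe set with the highest mean over the 5 arrays was taken. Ass1 and Afmid appear in that annotation only beside another gene, and Sds, Sdsl and Gls2 had no probe set assigned to them, so these 5 were not analysed here.

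The livers came from adult mice of the C57Bl/6 strain. All had intraperitoneal injections of 300 µg of antibody, 3 times a week for 6 weeks. The 3 control livers had received rat IgG and the 2 treated livers M279, which is directed against CSF1R, the receptor that macrophages need for CSF1 and IL-34. Each liver sample was measured on its own microarray. The labels do not say how many animals stand behind the samples, so a p-value here speaks only to the spread among these 5 samples, which may be technical. Because whole liver was used, fewer cells of a type and less RNA per cell cannot be told apart.

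Amino acids not needed for protein synthesis are stripped of their nitrogen in hepatocytes, and the carbon skeletons enter gluconeogenesis or are oxidised. Ammonia is made into urea in hepatocytes near the portal vein, while the last cells before the central vein catch what escaped by making glutamine. Many of these enzymes respond to fasting, glucagon and glucocorticoids, and their transcripts are among the abundant ones of the hepatocyte.

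No gene of the list passed limma's test. Of the 35556 probe sets, 0 reached an adjusted p under 0.05 in limma (0%), and so 0 of the 39 genes did. All differences below are therefore values on the log2 intensity scale, treated minus control, with the standard error (SE) of the fit. At an unadjusted p under 0.05 in limma, 2 of the 39 were lower, beside a background of 8.4% over all genes and 7.48% over the bright ones described next. In the other direction 0 were higher, beside 9.92% and 2.06%. These 2 were Aldh1b1 and Uroc1.

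Differences were more often below 0 than above it. They were below 0 for 28 of 39 genes (71.8%), and the median difference was -0.0983, beside 0.043 over all 18809 genes. The bulk of the list is bright, with 38 of 39 genes at a mean log2 level of at least 8. Over the 4119 genes at or above that level, a limit set after the values were seen, the median was -0.0442 and 57.2% lay below 0. Both treated arrays lay under all 3 controls for 7 of the 39 (17.9%), against a background of 19.5% over all genes and 25.1% over the bright ones. Both lay above all controls for 3 (7.69%), against 25.1% and 12.5%. The share of genes with groups apart was thus no larger than the background in either direction.

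The lower values came largely from a single treated array. On treated replicate 2 the median deviation of the 39 genes from their control means was -0.298, and on treated replicate 1 it was 0.0210. The control arrays stood at 0.0338, -0.104 and 0.0480, so treated replicate 1 lay within the range of the controls and treated replicate 2 below it. Treated replicate 2 was under all controls for 26 genes (66.7%), beside 47.1% of the bright genes and 31.2% of all genes. Treated replicate 1 was under them for 7 (17.9%), beside 33.8% and 29.5%. Replicate 2 was the lower of the treated pair for 33 of 39 genes (84.6%), where 55.2% of the bright genes had that order.

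The controls had an order of their own. Control replicate 2 gave the lowest control value for 31 of 39 genes (79.5%), while it was the lowest for 36.1% of the bright genes and 32.9% of all genes. The 4 genes with the widest control spread were Agxt, Gpt, Prodh and Cth. Agxt stood at 10.14, 9.57 and 9.88 on control replicates 1, 2 and 3, Gpt at 8.91, 8.54 and 9.05, Prodh at 10.01, 9.52 and 9.67, and Cth at 11.66, 11.21 and 11.59. Both treated arrays lay inside the control range for Agxt, Gpt and Cth, while for Prodh treated replicate 2, at 9.43, lay under all controls. Without control replicate 2 the count of genes with both treated arrays under the remaining controls was 16, and the median difference was -0.171. Without treated replicate 2 that median was 0.021, without treated replicate 1 it was -0.298, and the counts with the remaining treated array under all controls were 7 and 26.

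**Figure D1:**
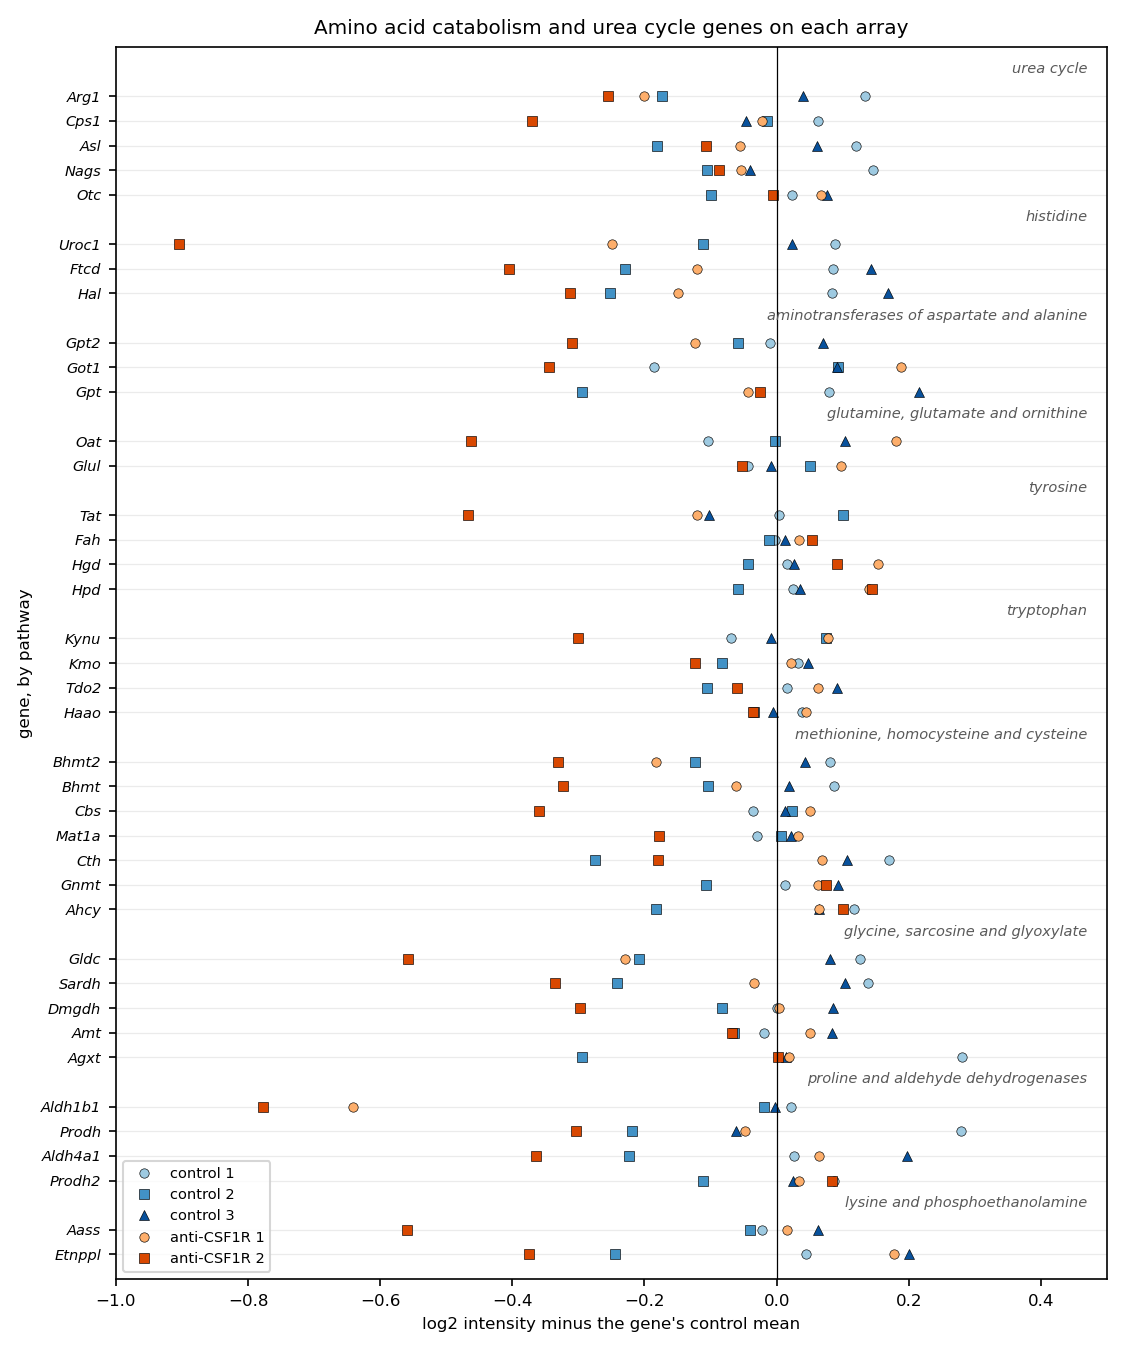
Log2 intensity of each of the 39 genes on each of the 5 arrays, as the difference from the mean of the 3 controls, grouped by pathway. Treated replicate 2 (dark orange squares) lies under all controls for 26 genes (66.7%, bright genes 47.1%). Treated replicate 1 (light orange circles) does so for 7 (17.9%, bright genes 33.8%). Control replicate 2 (mid-blue squares) is the lowest control for 31 (79.5%, bright genes 36.1%).

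**Figure D2:**
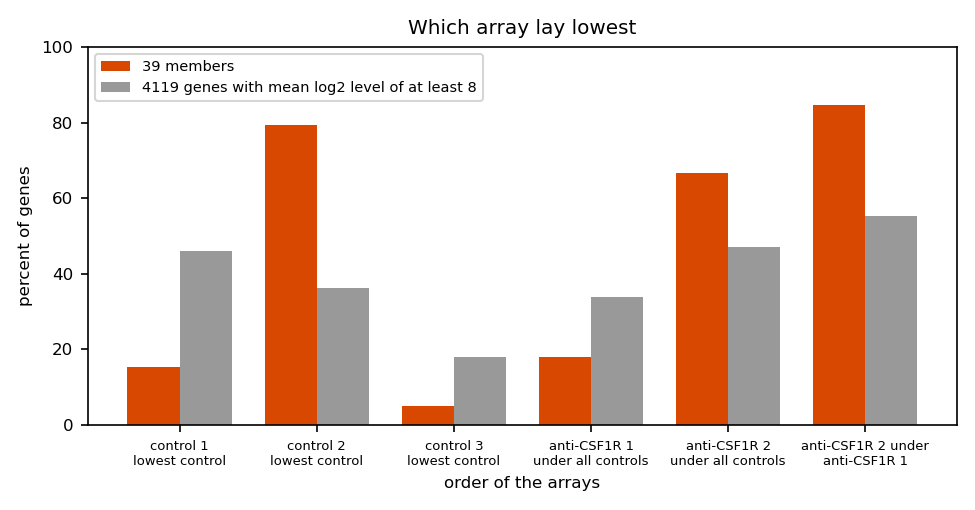
Percent of genes for which the named array had the stated place in the order of arrays, for the 39 genes of the list and for the 4119 genes with a mean log2 level of at least 8. Control replicate 2 was the lowest control for 79.5% of the list and 36.1% of the bright genes.

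Of the urea cycle genes 5 were measured, with differences from -0.23 to 0.03, and 4 were below 0. Cps1, which makes carbamoyl phosphate in the first committed step, read 12.75, 12.67 and 12.64 on the controls and 12.67 and 12.32 on the treated arrays. Only treated replicate 2 was outside the control range, and the difference was -0.20 ± 0.14 (limma, adjusted p = 0.437), or -0.0225 without that array. Arg1, the arginase that releases urea, read 11.48, 11.17 and 11.38 in controls and 11.14 and 11.09 in treated liver. Its groups did not overlap, but control replicate 2 lay only just above the treated arrays, and the difference was -0.23 ± 0.13 (limma, adjusted p = 0.362). Asl, which splits argininosuccinate, was at -0.08 ± 0.13, Nags, whose product activates Cps1, at -0.07 ± 0.12, and Otc, which makes citrulline, at 0.03 ± 0.11. For Asl, Nags and Otc both treated arrays lay inside the control range.

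In histidine breakdown all 3 genes of the list were below 0, with quantile normalization and cyclic loess too, where 57.2% of the bright genes were below 0 as deposited. Amdhd1, a gene of the same pathway outside the list, was at -0.14 ± 0.14 with overlapping groups. Uroc1, the urocanase of the pathway, read 10.17, 9.97 and 10.11 on the controls against 9.83 and 9.18 on the treated arrays. Both treated arrays were below every control, replicate 2 by far the more. The difference was -0.58 ± 0.21, or 67.0% of the control level (limma, adjusted p = 0.238), and it was -0.249 without treated replicate 2 and -0.906 without treated replicate 1. Hal, the histidase that opens the pathway, was at -0.23 ± 0.16, and Ftcd, which passes the formimino group to folate, at -0.26 ± 0.16. For Hal and Ftcd treated replicate 1 lay above control replicate 2, so the groups overlapped.

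Aldh1b1, a mitochondrial aldehyde dehydrogenase, gave the largest difference of the list. It read 6.90, 6.86 and 6.87 on the controls and 6.23 and 6.10 on the treated arrays. The treated values were some way below 3 nearly equal controls. The difference was -0.71 ± 0.10, or 61.1% of the control level (limma, adjusted p = 0.175), and between -0.778 and -0.641 when any array was left out. It is also the dimmest gene of the list. With quantile normalization the difference was -0.558 and with cyclic loess -0.575, and its adjusted p was 0.0598 when only 1 probe set per gene was fitted.

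Glycine breakdown and the sarcosine pathway were next. Gldc, the decarboxylase of the glycine cleavage system, read 10.14, 9.80 and 10.09 in controls and 9.78 and 9.45 in treated liver. Treated replicate 1 lay just under control replicate 2, and treated replicate 2 clearly lower. The difference was -0.39 ± 0.16 (limma, adjusted p = 0.271), or -0.23 without treated replicate 2. Amt, the aminomethyltransferase of the same cleavage system, was at -0.01 ± 0.11. Sardh and Dmgdh, which demethylate sarcosine and dimethylglycine, were at -0.18 ± 0.17 and -0.15 ± 0.13, with treated replicate 1 near or at the control mean. Agxt, the aminotransferase that turns glyoxylate into glycine, was at 0.01 ± 0.18.

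The promoters of the 3 genes with the smallest p, Aldh1b1, Uroc1 and Gldc, are shown because these genes were lower on both treated arrays. They are the 250 bases before the start of each gene in RefSeq on GRCm38.p6, 5′ to 3′ on the gene's own strand. Capitals mark matches to any of 5 short motifs searched on both strands: TGACG (a CRE half-site), AGAACA (a glucocorticoid receptor half-site), GTTAAT (an HNF1 half-site), TATAAA (the TATA box) and CCAAT (the CCAAT box).
Aldh1b1 promoter, chr4:45798772-45799021, plus strand: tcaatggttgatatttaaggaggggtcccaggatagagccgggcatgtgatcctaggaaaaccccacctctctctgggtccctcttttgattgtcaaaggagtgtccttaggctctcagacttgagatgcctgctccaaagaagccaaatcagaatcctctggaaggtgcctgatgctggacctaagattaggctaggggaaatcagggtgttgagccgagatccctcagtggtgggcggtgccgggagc
Uroc1 promoter, chr6:90333039-90333288, plus strand: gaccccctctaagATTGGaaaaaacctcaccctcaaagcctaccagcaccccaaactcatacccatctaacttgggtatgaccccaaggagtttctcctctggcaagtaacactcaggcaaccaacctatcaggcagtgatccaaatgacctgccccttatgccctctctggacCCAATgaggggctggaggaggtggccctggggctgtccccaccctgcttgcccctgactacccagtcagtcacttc
Gldc promoter, chr19:30175442-30175691, minus strand: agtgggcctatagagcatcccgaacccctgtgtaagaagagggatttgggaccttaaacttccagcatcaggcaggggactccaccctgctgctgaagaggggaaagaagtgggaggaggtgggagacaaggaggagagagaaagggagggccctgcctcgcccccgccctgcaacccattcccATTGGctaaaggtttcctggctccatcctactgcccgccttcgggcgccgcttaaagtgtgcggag
The capitals in Uroc1 and Gldc are CCAAT boxes, read as ATTGG where they lie on the other strand, and Aldh1b1 held none of the 5 motifs. RefSeq promoters were matched for 32 of the 39 genes. Over these, CCAAT was found in 17 (53.1%), where 33.8% of all 32851 promoters held it. The list was counted with a single promoter per gene and the background over every promoter entry, so the shares may differ in basis. TGACG was in 2 (6.25%, all promoters 17.8%), AGAACA in 2 (6.25%, all promoters 16.1%), GTTAAT in 3 (9.38%, all promoters 6.43%) and TATAAA in 4 (12.5%, all promoters 12.4%). Of the 6 genes with lower values on both treated arrays and a matched promoter, 3 held CCAAT (Gldc, Tat and Uroc1), as did Hgd among the 3 with higher values.

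Tyrosine breakdown was split between its entry and its later steps. Tat, the aminotransferase that starts the pathway and a classic glucocorticoid-responsive gene, read 12.68, 12.77 and 12.57 on the controls and 12.55 and 12.20 on the treated arrays. Treated replicate 1 was barely under control replicate 3, and replicate 2 was well under it. The difference was -0.29 ± 0.14 (limma, adjusted p = 0.319), or -0.121 without treated replicate 2. Hpd, the dioxygenase of the next step, read 12.14, 12.06 and 12.15 in controls and 12.26 and 12.26 in treated liver. The treated arrays lay together above all controls, by 0.14 ± 0.10 (limma, adjusted p = 0.446). Hgd, which opens the ring of homogentisate, read 11.89, 11.83 and 11.90 in controls and 12.03 and 11.96 in treated liver, a difference of 0.12 ± 0.10. Fah, the last enzyme of the pathway, was at 0.04 ± 0.10, with both treated arrays just above the controls. With cyclic loess normalization Hpd was at 0.0332 and Hgd at 0.0271, while Fah turned to -0.0707, and none of the 3 kept its groups apart.

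The ratio of Tat to Hpd within each array, which does not depend on how arrays were scaled to one another by a common factor, was looked at after the values were seen. On the log2 scale it was 0.53, 0.71 and 0.42 on the controls and 0.29 and -0.06 on the treated arrays, a change of -0.44. Tat was under all controls and Hpd above them on both treated arrays, so the groups of the ratio could not overlap. The exact two-sided permutation test gave p = 0.1, the smallest that 2 against 3 arrays allow. It was 0.4 after Benjamini-Hochberg adjustment over the 4 ratios computed. Since the separation was fixed by the choice of genes, the test adds no support.

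Tryptophan breakdown through kynurenine was close to the controls. Tdo2, the dioxygenase that commits tryptophan to the pathway, was at 0.00 ± 0.12, and Haao, which oxidises hydroxyanthranilate, at 0.00 ± 0.10. Kmo, the kynurenine hydroxylase, was at -0.05 ± 0.11 and Kynu, the kynureninase, at -0.11 ± 0.14. Kmo and Kynu turned to 0.021 and 0.0786 without treated replicate 2.

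The aminotransferases that link alanine and aspartate to their keto acids also differed by array. Gpt2, the mitochondrial alanine aminotransferase, read 10.55, 10.50 and 10.63 in controls and 10.44 and 10.25 in treated liver. Both treated values were under all controls, with a difference of -0.22 ± 0.11 (limma, adjusted p = 0.340), or -0.123 without treated replicate 2. The cytosolic Gpt was at -0.03 ± 0.17. The log2 ratio of Gpt2 to Gpt was 1.64, 1.97 and 1.58 in controls and 1.65 and 1.45 in treated liver, so the groups overlapped (exact two-sided permutation p = 0.6). Got1, the cytosolic aspartate aminotransferase, was 0.188 above the control mean on treated replicate 1 and at -0.344 on treated replicate 2.

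In the methionine cycle and transsulfuration, 5 of 7 genes were below 0. Bhmt2, which remethylates homocysteine, read 10.58, 10.38 and 10.55 on the controls and 10.32 and 10.17 on the treated arrays. The treated arrays were the lowest of the 5, with a difference of -0.26 ± 0.12 (limma, adjusted p = 0.306). Its paralogue Bhmt, the betaine-homocysteine methyltransferase, was at -0.19 ± 0.13, and a further probe set of Bhmt was at -0.05 ± 0.11. The ratio of Bhmt2 to Bhmt changed by -0.06 (exact two-sided permutation p = 0.2). Cbs and Cth, the enzymes of transsulfuration, were at -0.15 ± 0.15 and -0.06 ± 0.17. Mat1a, which makes S-adenosylmethionine in hepatocytes, was at -0.07 ± 0.11, Gnmt, which spends it on glycine, at 0.07 ± 0.11, and Ahcy, which splits S-adenosylhomocysteine, at 0.08 ± 0.13. The 2 further probe sets of Ahcy gave 0.09 ± 0.12 and 0.08 ± 0.11.

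Among the remaining genes, Prodh, the proline dehydrogenase of mitochondria, was at -0.18 ± 0.18 and Prodh2, which oxidises hydroxyproline, at 0.06 ± 0.11. The ratio of Prodh to Prodh2 changed by -0.23 (exact two-sided permutation p = 0.5). Aldh4a1, which finishes proline breakdown, was at -0.15 ± 0.19. Aass, which starts lysine breakdown, read 10.73, 10.72 and 10.82 in controls and 10.77 and 10.19 in treated liver, so only treated replicate 2 departed. Etnppl, which splits phosphoethanolamine, was 0.178 above its control mean on treated replicate 1 and at -0.375 on treated replicate 2.

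**Figure D3:**
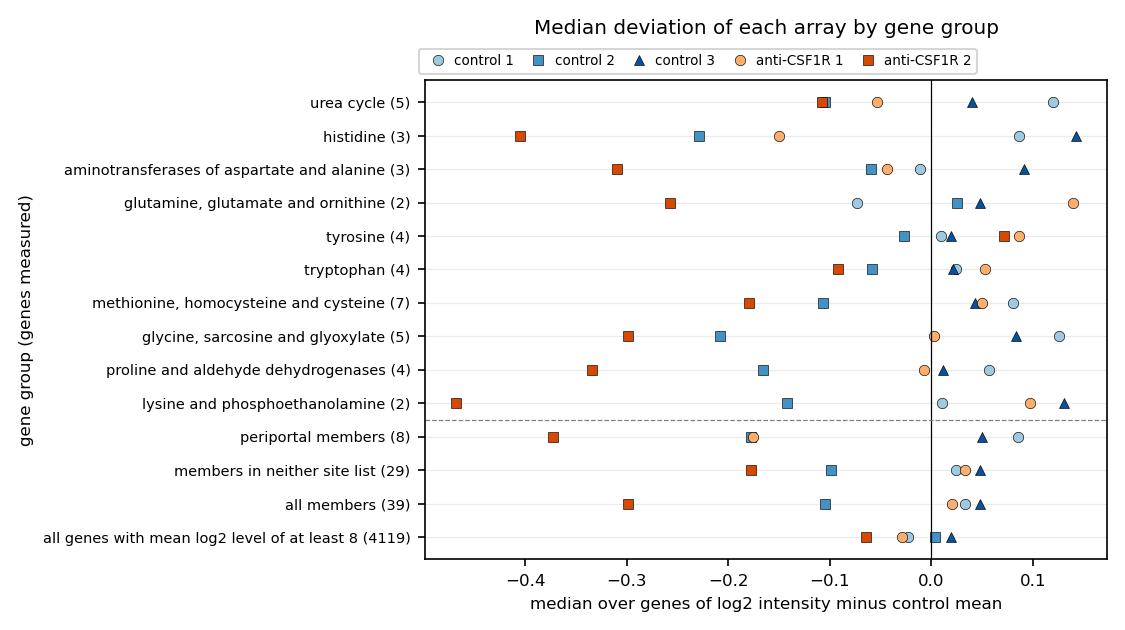
Median over the genes of each group of the log2 intensity minus the control mean, on each of the 5 arrays, with the number of genes measured in brackets. Treated replicate 2 has the lowest median of the 5 arrays in all groups plotted except tyrosine, and over the whole list it stands at -0.298.

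By place in the liver lobule, genes were listed as periportal from general knowledge of zonation, with earlier results of these data known. Of the 11 listed, 8 were measured, and all 8 differences were below 0 (Aldh1b1, Uroc1, Gldc, Hal, Arg1, Cps1, Etnppl and Asl), which also held with quantile normalization, cyclic loess and both ways of centring. Their median was -0.230, and 4 of the 8 had both treated arrays under all controls, against the background of 19.5% over all genes and 25.1% over the bright ones, to which 7 of the 8 belong. With arrays centred on their medians the count was 2 of the 8. The list left out the urea cycle genes Otc and Nags. When both were added, after the values were seen, 9 of 10 were below 0, the exception being Otc (0.03 ± 0.11, or -0.0345 with quantile normalization and -0.0234 with cyclic loess), the median was -0.212 and the count apart lower was still 4. Without these additions, the array medians of the 8 genes were 0.0859, -0.178 and 0.0504 on the controls. They were -0.175 on treated replicate 1 and -0.373 on treated replicate 2. Treated replicate 1 was thus level with control replicate 2. Etnppl turned positive without treated replicate 2 (0.178) or control replicate 3 (0.00172). The 29 genes in neither site list had a median difference of -0.0703, with 3 apart lower and 3 apart higher. The difference between the site lists was not tested.

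The pericentral side held only Glul and Oat. Glul, the glutamine synthetase of the cells around the central vein, read 11.71, 11.80 and 11.75 on the controls and 11.85 and 11.70 on the treated arrays. The treated arrays fell on either side of the controls, with a difference of 0.02 ± 0.11, and the gene's further probe set gave -0.05 ± 0.13. The annotation does not say how the probe sets of Glul, Bhmt or Ahcy divide near-identical gene copies, so these genes are uncertain. Oat, the ornithine aminotransferase, read 11.54, 11.64 and 11.75 in controls, 11.82 on treated replicate 1 and 11.18 on treated replicate 2. The treated arrays lay on opposite sides of all controls, and the difference of -0.14 ± 0.20 stands for neither of them.

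Genes outside the list with a known place in the lobule were read beside these. Of 9 measured periportal ones, 7 were below 0, with 4 apart lower and 1 apart higher. All 9 are bright, and the background over bright genes was 25.1% lower and 12.5% higher. The lower ones included Cdh1, or E-cadherin (-0.86 ± 0.21). Of 14 pericentral ones, 12 were above 0 (9 with cyclic loess, 11 with quantile normalization), with 8 apart higher and 2 apart lower. These 14 leave out the carriers Rhbg and Slc1a2, also known as pericentral, which were counted with the further genes of amino acid metabolism. Both were below 0, at -0.21 ± 0.15 and -0.15 ± 0.15, with overlapping groups. The background was 25.1% higher and 19.5% lower over all genes, and 12.5% and 25.1% over the bright ones, to which 9 of the 14 belong. The pericentral median was 0.179 above the control means on treated replicate 1 and 0.144 on treated replicate 2, so both treated arrays were above the controls there. The periportal one was at -0.0399 and -0.257. The pericentral genes with the smallest p were Sp5 (0.52 ± 0.11) and Tbx3 (0.71 ± 0.20), transcription factors induced by Wnt signalling, and Lhpp, a phosphatase (0.45 ± 0.14). Sp5 is dim, with a mean level of 4.03 in controls and 4.55 in treated liver, and is the 1 pericentral gene under 5. Slc13a3, a dicarboxylate transporter (-0.35 ± 0.12), and Lgr5, a receptor that enhances Wnt signalling (-0.54 ± 0.20), went the other way, and so did Hsd17b6 (0.55 ± 0.20) on the periportal side. None of these passed limma's adjusted threshold, and the smallest adjusted p among them was 0.189.

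**Figure D4:**
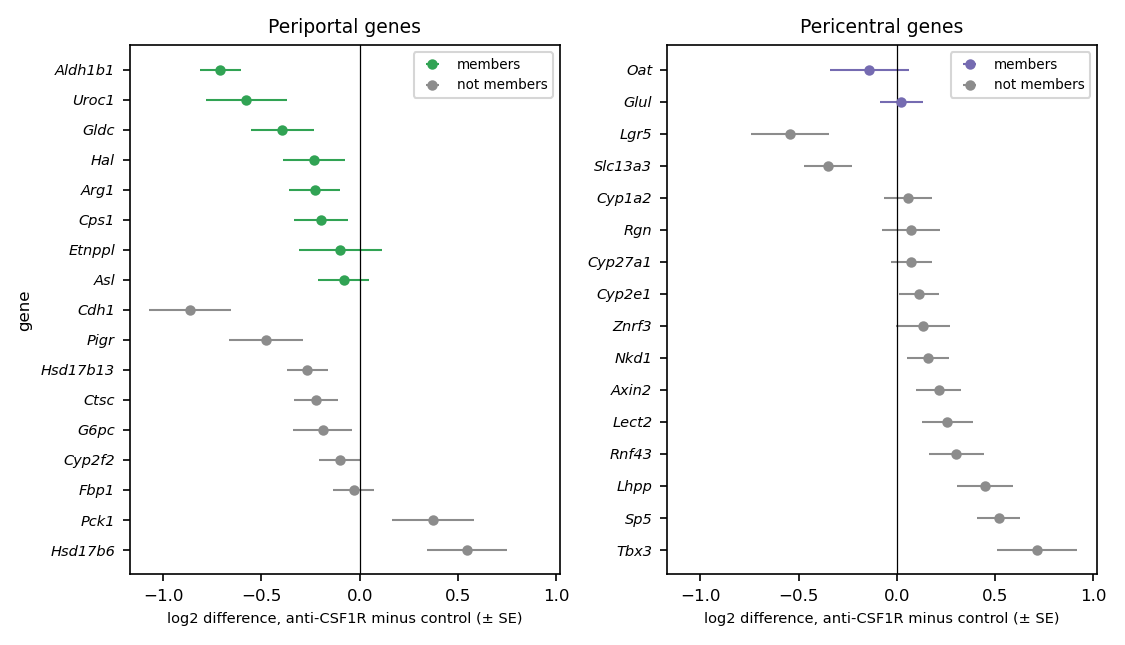
Log2 difference, treated minus control, with its SE from limma (3 control and 2 treated arrays), for genes listed as periportal (left) and pericentral (right). The 8 enzyme genes listed as periportal, which leave out Otc, are all below 0. Of the 14 pericentral genes outside the enzyme list, which leave out Rhbg and Slc1a2, 12 are above 0.

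Of 72 further genes of amino acid metabolism that were measured, 47 were below 0 (65.3%) and their median was -0.0715. Below 0 were 43.7% of all genes and 57.2% of the bright ones. Both treated arrays lay under all controls for 11 (15.3%) and above them for 8 (11.1%). The background was 19.5% and 25.1% over all genes, and 25.1% and 12.5% over the bright ones. Of the 72, 0 passed limma's adjusted threshold. The lower ones with the smallest p were Mtr, the methionine synthase (-0.59 ± 0.12), Aldh18a1, which makes proline and ornithine precursors (-0.57 ± 0.16), and Gatm, which starts creatine synthesis (-0.28 ± 0.10). Mtr read 6.69, 6.96 and 6.73 on the controls and 6.23 and 6.18 on the treated arrays, so the treated pair was well apart from the controls and close together. Higher values were found for Bcat1, a branched-chain aminotransferase (0.36 ± 0.10), and Phgdh, which starts serine synthesis (0.25 ± 0.10), both at levels under 5. Branched-chain amino acid genes had a median of -0.0700, with 15 of 21 below 0.

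Among 10 measured regulators of these enzymes, 4 had both treated arrays under all controls and 1 above, beside a background of 19.5% and 25.1% over all genes, and 25.1% and 12.5% over the bright ones, to which 6 of the 10 belong. The 4 became 2 with quantile normalization and 1 with cyclic loess. Their median of -0.104 turned to 0.0152 with cyclic loess and 0.0112 with quantile normalization. The lower ones were the coactivator Ppargc1a (-0.38 ± 0.16), the glucocorticoid receptor Nr3c1 (-0.26 ± 0.12), the hepatocyte factor Hnf4a (-0.18 ± 0.11) and Creb1 (-0.13 ± 0.10), and the higher one was the glucagon receptor Gcgr (0.16 ± 0.12). These 5 were named after their values were seen, and 0 of the 10 had an unadjusted p under 0.05 in limma.

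Markers of liver cell types were read on the same arrays. Hepatocyte markers were bright on all arrays, with a summed intensity of 74626 to 76070 on the controls and 74482 and 75686 on the treated arrays, and 6 of 12 differences were below 0. With cyclic loess all 12 were below 0 with a median of -0.153, close to the median of -0.158 that the 39 enzyme genes had under that scaling. The medians of markers and enzyme genes were further apart under the other scalings. They were -0.00226 and -0.0983 as deposited, and -0.0325 and -0.146 with quantile normalization. With arrays centred on their medians they were 0.0355 and -0.0605. Macrophage markers had 11 of 13 differences below 0, with a summed intensity of 4785 to 5534 on the controls, 3714 on treated replicate 1 and 4944 on treated replicate 2. By gene, treated replicate 1 was under all controls for 12 of the 13, beside 29.5% of all genes and 33.8% of the bright ones. Treated replicate 2 was under all controls for 5 (Csf1r, Adgre1, Cd163, C1qb and Mpeg1), above all for 3 (Marco, C1qa and Cd5l) and inside the control range for 5. For that array the shares under all controls were 31.2% of all genes and 47.1% of the bright ones, and those above 40.5% and 33.4%. Groups were apart lower for 5 markers and apart higher for 1, beside 19.5% and 25.1% over all genes, and 25.1% and 12.5% over the bright ones. Sinusoidal endothelial markers had a summed intensity of 4219 to 4366 on the controls and 4730 and 4527 on the treated arrays, with 5 of 8 differences below 0. The higher sum lay mostly in the brightest of them, Clec4g, which read 1658 to 1741 on the controls and 2074 and 2106 on the treated arrays. Marker sums for neutrophil (5 of 6 above 0), exocrine pancreas (4 of 4), adipose (5 of 5) and gut and kidney genes (6 of 6) were above the controls on both treated arrays. Of those 21 genes, 17 had a mean log2 level under 5, with none at 0. Over all 18809 genes, 10585 were above 0 and 25.1% were apart higher. The gut and kidney sum was mostly that of Fabp2, a bright gene, which read 642 to 862 on the controls and 972 and 1241 on the treated arrays. The part of any of these cell types in the enzyme values was not tested. Median intensity was 32.5 to 33.9 over the 5 arrays, and the number of arrays limits the precision, with a median SE of 0.130 for the genes of the list.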

How the data were processed

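The deposited table holds the authors' probe set intensity on a linear scale, 1 column per array. Per the submitters' processing notes, Affymetrix Expression Console 1.1 was used. How it summarised, background-corrected and scaled the arrays is unknown here. Per the labels' protocols, cDNA was amplified before labelling, and this can change how strongly dim and bright transcripts are represented. Log2 of the intensity was taken with no pseudocount or filter. Probe sets were named through the platform annotation (21218 with a single symbol, 1881 with several, 12457 unlisted), updated through RefSeq GRCm38.p6.

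The main test was limma's moderated test (version 3.58.1, under R 4.3.3, two-sided, lmFit followed by eBayes, with 3 residual and 3.03 prior degrees of freedom), adjusted by Benjamini-Hochberg over all 35556 probe sets at 0.05, and the code was tested on simulated data. Groups are called apart where the treated pair lies wholly above or wholly below the 3 controls. Values on every array were to be given for genes that were apart with an unadjusted p under 0.05 and for Cps1, Ass1, Glul and Oat; other genes shown by array were picked after their values were seen. Of further genes, at most 6 in each direction that were apart, with the smallest p, are named. The named regulators, Amdhd1, Rhbg and Slc1a2 came in addition to these, after their values were seen. The genes and lists were chosen with earlier results of these data known. Alternatives were quantile and cyclic loess normalization, centring, filters on dim probe sets, a pseudocount of 16, array weights, a trend and robust variance model, the replicate number entered as a block, other probe sets per gene, and leaving out each array. Plots used matplotlib 3.10.9 (Python 3.11.15).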

Additional observations from a re-analysis of the deposited data

How the results depend on the processing

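Of the genes in the list, 0 passed limma's adjusted threshold under any alternative run. When only 1 probe set per gene was fitted, 14 genes outside the list passed. The count of genes with both treated arrays above all controls was 1 with quantile normalization and 0 with cyclic loess. The count below all controls was 11 with cyclic loess and 4 with arrays centred on their medians, or on the median of the bright genes (added after seeing the data). When 1 array was left out, the median difference ran from -0.298 to 0.021, the count above from 3 to 10 and the count below from 7 to 26, and 0 probe sets were called. With the replicate number as a block the median was -0.0607 and 0 probe sets were called. The labels do not say whether same-numbered arrays belong together. Same-numbered deviations correlated at 0.0489 and -0.0109 across genes. Within the list, control replicate 2 was the lowest control for 31 of 39 genes, and treated replicate 2 was under treated replicate 1 for 33. An effect shared by arrays of the same number was not tested. Direction turned for some genes, and not only for those near 0. Aass (-0.272), Cbs (-0.155), Aldh4a1 (-0.15), Dmgdh (-0.148) and Oat (-0.14) turned above 0 without treated replicate 2. With quantile normalization, values were -0.017 for Agxt, 0.00832 for Amt, -0.00342 for Fah, -0.0522 for Glul, -0.0508 for Haao, -0.0345 for Otc and -0.0693 for Tdo2. With cyclic loess, values were -0.0338 for Ahcy, 0.044 for Amt, -0.0707 for Fah, -0.0645 for Glul, -0.0424 for Gnmt, 0.023 for Gpt, -0.0767 for Haao, -0.0234 for Otc and -0.0984 for Tdo2. With arrays centred on their medians, values were 0.0292 for Amt and 0.00318 for Gpt. With array weights, values were -0.0138 for Tdo2. With the replicate block, values were 0.0331 for Amt, 0.00172 for Etnppl and 0.0733 for Gpt. With the mean of all probe sets, values were -0.0148 for Glul. With centring on bright genes, values were 0.0288 for Amt and 0.00275 for Gpt. With the dimmest probe set of each gene, values were -0.0527 for Glul. Leaving out 1 array, differences ran from -0.561 to 0.0161 for Aass, from -0.137 to 0.151 for Agxt, from -0.00776 to 0.142 for Ahcy, from -0.364 to 0.0638 for Aldh4a1, from -0.0678 to 0.0506 for Amt, from -0.36 to 0.0502 for Cbs, from -0.193 to 0.0684 for Cth, from -0.298 to 0.00292 for Dmgdh, from -0.375 to 0.178 for Etnppl, from -0.0521 to 0.0982 for Glul, from -0.344 to 0.188 for Got1, from -0.182 to 0.0733 for Gpt, from -0.0352 to 0.0439 for Haao, from -0.124 to 0.021 for Kmo, from -0.301 to 0.0786 for Kynu, from -0.177 to 0.0334 for Mat1a, from -0.123 to 0.0025 for Nags, from -0.462 to 0.182 for Oat, from -0.0184 to 0.0687 for Otc and from -0.0598 to 0.0624 for Tdo2. Where a treated array was left out, the other was assumed to vary like the controls. The cause of these changes was not tested.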
